A study of Mus musculus and Bos taurus with 2 samples.

Results

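The spliced models nested inside introns are transcript models with at least 2 exons that lie wholly within an intron of a reference gene, called the host here. They were taken from the deposited models by the comparison code i, which marks a model inside a reference intron on either strand. Mouse models with 1 first exon length, the one between 114 and 116 bp, were left out. The rule kept 939 of 42028 mouse models, or 2.23% (exact 95% interval 2.10% to 2.38%), and 969 of 40819 bovine models, or 2.37% (2.23% to 2.53%). Together these were 1908 of 82847 models. Exon number, first exon length and the code chose the members, so these are given as descriptions.

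The mouse group was late 2-cell embryos of the Slc:ICR stock, produced by in vitro fertilization, grown in KSOM medium and collected 36 h after insemination. The bovine group was 8-cell to 16-cell embryos collected 72 h after insemination, with oocytes of Japanese Black animals or of F1 animals of Japanese Black × Holstein and sperm of a Japanese Black bull. About 200 embryos were pooled per group, and polyadenylated RNA was read as PCR-amplified cDNA (14 cycles) on a nanopore sequencer. There was 1 library per species, so no value below has a replicate check and no test was run. Species, stage, annotation and library cannot be told apart in any comparison of the 2 libraries. Since the files hold no read numbers, depth is unknown. Sense models were present for 10 of 10 late 2-cell markers in mouse and 10 of 10 stage markers in bovine. Sense models were also present for 7 of 12 cumulus and granulosa markers in mouse and 5 of 12 in bovine, for 3 of 8 and 4 of 8 sperm markers, and for 3 of 8 blood and immune markers in each. Their part in the results was not tested.

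An intron can hold another transcription unit. A nested transcript on the strand of its host can be a separate gene or a short product that starts or ends inside the host, whereas one on the other strand is antisense to the host's precursor RNA. Both stages are times when the embryo's own genome becomes active, and in the mouse late 2-cell embryo long terminal repeats of endogenous retroviruses are known to serve as promoters and first exons. No repeat annotation was used here, and whether a first exon lies in a repeat was not tested.

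First exons of the mouse models shared sequence across unrelated hosts. Sequence was known only where a GENCODE M21 transcript or a RefSeq start window (GRCm38, the build named mm10 elsewhere) covers the exon. At least 50 bases were known for 79 of the 762 distinct first exons, or 10.4%, and these are not a random sample, since they lie where an annotation already had a transcript or start. Of the 79, 24 fell into 1 group by similarity on the same strand, where the best identity to an exon in another host had a median of 98.8% and was 92.5% at the lowest. The 24 exons belonged to 32 models in 21 hosts. The following 5 exons are shown because they carry the shared body and differ in the known run of 6-base units, GCTCNN, which is in capitals. Each is the known part of the exon, 5′ to 3′, read from GENCODE M21 transcripts and RefSeq start windows.
St8sia1: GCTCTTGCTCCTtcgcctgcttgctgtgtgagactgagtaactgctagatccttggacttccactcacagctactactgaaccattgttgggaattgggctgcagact
Grxcr1: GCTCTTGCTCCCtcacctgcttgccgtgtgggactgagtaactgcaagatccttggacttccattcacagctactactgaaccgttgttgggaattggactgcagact
Mcm9: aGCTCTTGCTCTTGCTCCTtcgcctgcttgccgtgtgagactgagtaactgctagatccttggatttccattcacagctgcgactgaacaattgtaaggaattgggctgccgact
Vwa8: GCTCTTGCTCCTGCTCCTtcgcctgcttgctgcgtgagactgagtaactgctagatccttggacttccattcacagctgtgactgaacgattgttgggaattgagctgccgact
Poc1b: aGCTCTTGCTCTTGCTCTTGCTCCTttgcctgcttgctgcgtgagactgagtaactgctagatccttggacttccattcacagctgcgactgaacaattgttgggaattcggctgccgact

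The exon in St8sia1, the gene of a ganglioside sialyltransferase, is chr6:142971752-142971859 on the plus strand and overlaps an exon of the lincRNA gene A930014E10Rik. It was 108 bp long with 2 units. The exon in Grxcr1 is chr5:68084267-68084375 on the minus strand, at the annotated transcript Gm43025. It was 109 bp, of which 108 bases were known, also with 2 units. The exon in Mcm9, the gene of a DNA helicase, is chr10:53575642-53575756 on the minus strand and has the first exon length left out by the rule. It is shown beside the members because it had 3 units. The exon in Vwa8 is chr14:79151276-79151396 on the minus strand, at the annotated antisense gene Gm49015, with 114 of its 121 bases known and 3 units among them. The exon in Poc1b, the gene of a centriole protein, is chr10:99184490-99184629 on the minus strand, at the annotated antisense gene Gm16239, with 121 of 140 bases known and 4 units. In Vwa8 and Poc1b the unknown bases lie at the 5′ end, beside the units, so their unit counts are lower bounds. In these 5 exons the body after the units differed by single letters and the last known bases were gact in all of them.

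Another group held 8 exons, and 3 of its short exons are shown because they share an unbroken stretch of 27 bases, in capitals, that the first group's printed exons do not have.
Cog5: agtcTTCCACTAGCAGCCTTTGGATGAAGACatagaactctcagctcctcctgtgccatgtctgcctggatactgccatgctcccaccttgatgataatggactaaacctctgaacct
Btbd9: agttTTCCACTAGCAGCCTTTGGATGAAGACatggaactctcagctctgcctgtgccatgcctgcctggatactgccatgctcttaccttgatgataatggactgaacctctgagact
Frmd4a: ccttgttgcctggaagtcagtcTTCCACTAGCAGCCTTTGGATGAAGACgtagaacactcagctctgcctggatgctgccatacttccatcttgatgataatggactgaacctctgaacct

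The exon in Cog5, the gene of a Golgi tethering subunit, is chr12:31849509-31849630 on the minus strand (122 bp, 118 known), at the annotated antisense gene Gm48809. That in Btbd9 is chr17:30450346-30450515 on the plus strand (170 bp, 118 known), at an annotated processed transcript. That in Frmd4a is chr2:4104114-4104234 on the minus strand (121 bp, all known). The other exons of this group lay in Atad2b, Pgam5, Zfp775 and again Btbd9. A further group held 3 exons (Fbxl7, Itsn1, D7Ertd443e) and the smallest 2 (both in Cert1).

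The stretch of 15 bases found in most exons of the first group, TTCCATTCACAGCTG, was then searched on both strands. It was in 20 of the 24 exons of that group, by which it was chosen, and in 21 of the 79 member first exons with known bases, or 26.6% (17.3% to 37.7%). Among 32851 RefSeq windows from 250 bases before to 50 after a gene start it was in 6, or 0.0183%. In the exon of Abca17, a member of the group known from its first base, the stretch ends at base 74. A gene starting at the first base of such an exon would hold the stretch beyond the 50 bases covered. The windows are therefore no base for first exons. Among first exons of exact matches to a reference transcript the stretch was in 10 of 12337 (0.0811%). It was in 41 of 201 first exons of spliced models between genes, or 20.4% (15.1% to 26.6%). First exons of spliced models overlapping an exon on the opposite strand held it in 21 of 252, or 8.33% (5.23% to 12.5%). Since the stretch was chosen on exons that are among the 79, the share in the members is raised by that choice and is not compared with the other classes. These known-sequence sets share the bias toward annotated places, and a match is a description of letters only. The model classes other than the members also keep the first exon length left out by the rule.

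First exon lengths of the mouse models were bunched at a few values. A length of 108 bp was seen in 26 models and 109 bp in 25, followed by 123 bp in 17, 121 bp in 16 and 145 bp in 15. The 26 models of 108 bp lay in 19 hosts and the 25 of 109 bp in 14. At 123 and 145 bp, Fam117b and Fam160a1 supplied 6 models each, and 11 and 9 were left without them. Just beside the omitted length, 114 bp was seen in 2 models and 116 bp in 12. The omitted models numbered 64, or 6.38% of the 1003 spliced intronic mouse models (4.95% to 8.08%). Lengths of 107 to 110 bp, from 1 bp below to 2 bp above the most frequent length, made up 73 of 939 mouse models, or 7.77% (6.14% to 9.68%). The same window held 6.44% of mouse spliced models between genes, 6.55% of those overlapping an exon on the opposite strand and 1.75% of exact spliced matches. These other classes keep the omitted length, at 6.68%, 5.55% and 0.403% of their models, so their base differs from that of the members. In bovine the window held 13 of 969 models, or 1.34% (0.716% to 2.28%). The most frequent bovine first exon lengths were 128 and 455 bp, with 9 models each, and 133 bp with 8. PLEKHM3 held 6 of the 9 at 128 bp and CSMD1 8 of the 9 at 455 bp, so 3 and 1 were left without these hosts, whereas the 8 at 133 bp lay in 8 hosts.

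**Figure D1:**
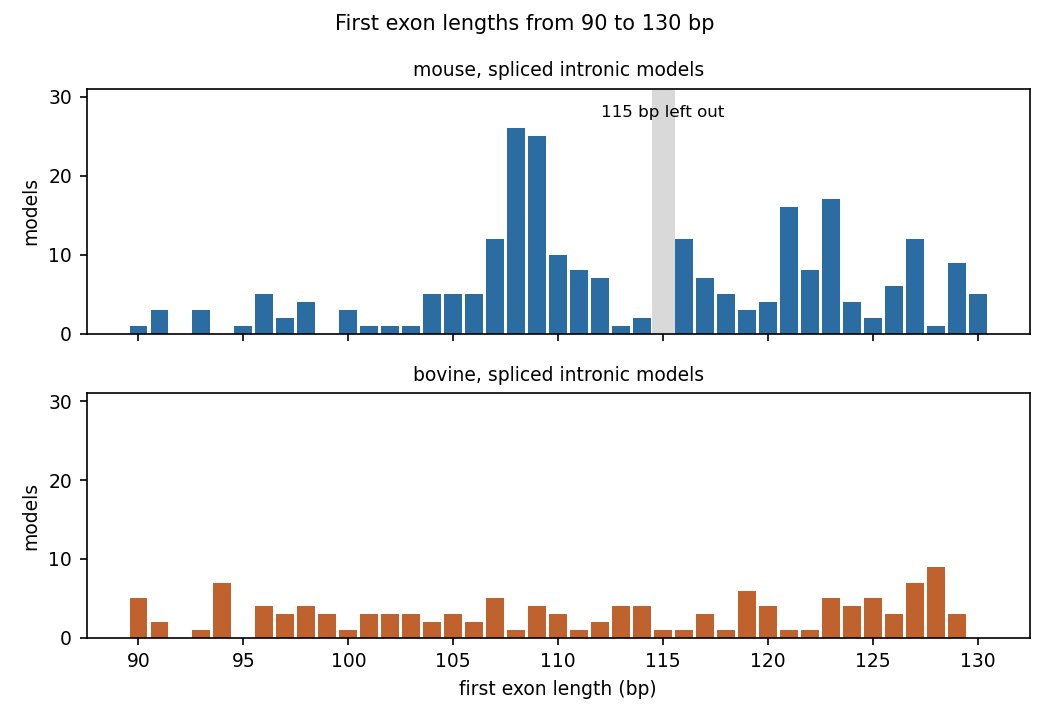
Number of spliced intronic models (vertical axis) at each first exon length from 90 to 130 bp (horizontal axis), mouse above and bovine below; the grey band is the length left out in mouse. Mouse lengths peak at 108 and 109 bp with 26 and 25 models, and no bovine length in this range has more than 9.

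A second set of mouse models had very long first exons. In 39 models, or 4.15% (2.97% to 5.63%), the first exon was at least 5000 bp. They ran from 5583 to 6418 bp with a median of 6020 bp, and 32 of the 39 lay between 5900 and 6100 bp, a window chosen after the lengths were seen. The 39 models used 25 distinct first exons in 24 hosts. In bovine, 1 of 969 models had so long a first exon (5027 bp, in PGM5), and of 16388 exact spliced matches in mouse 1 did (0.00610%). The share was 3.71% among mouse spliced models between genes and 3.78% among those overlapping an exon on the opposite strand, classes that keep the omitted length. Of the 39, 35 lay on the strand opposite to the host, or 89.7% (75.8% to 97.1%), and 4 on the same strand.

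Hosts of these long first exons included the cadherin gene Cdh23, whose 2 models began with an exon of 6070 bp, and the catenin gene Ctnna2, with 2 models from an exon of 6093 bp. Slc44a1, a choline transporter gene, held 3 models from 1 exon of 6058 bp that differed in later exons, with spliced lengths of 7347, 7522 and 8545 bp. Thoc2, the gene of an mRNA export subunit, held 3 models from an exon of 6020 bp, with spliced lengths of 7299, 7869 and 8418 bp. In 1700030N03Rik, 4 models shared an exon of 6018 bp. Sequence was partly known for 2 of the long exons. In Rala, the gene of a small GTPase, 3631 of 6318 bases were known. There, 3 stretches resembled short exons of the first sequence group. The first was at bases 300 to 414 and the last at bases 6196 to 6318. The short exons compared include the 55-bp exon in Tmcc1, which lacks the body shown above and matched both Rala and Mcm9 (92.5% identity). A stretch therefore need not carry that body. In Slk, a kinase gene, 2705 of 6018 bases were known and 1 stretch like the short exons lay at its 5′ end, from base 1. Shorter first exons with such stretches included those of 3852 bp in Arhgap22, 3516 bp in Mcm9 and 1407 bp in Gm4107.

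Most members were short and simple. Models of exactly 2 exons made up 627 of 939 in mouse (66.8%) and 640 of 969 in bovine (66.0%). Models of 3 exons numbered 223 and 241, of 4 exons 67 and 71, and of 5 or more 22 and 17. Just outside the rule were intronic models without an intron, 1855 in mouse and 245 in bovine. With the omitted models counted in, 35.1% of 2858 intronic mouse models (33.3% to 36.9%) and 79.8% of 1214 bovine ones (77.4% to 82.0%) were spliced.

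Mouse models had a median spliced length of 886 bp (95% interval of the median 834 to 971) and bovine models one of 980 bp (943 to 1045). The median stretch of genome covered was 4155 bp (3813 to 4548) in mouse and 3326 bp (3025 to 3821) in bovine. Spliced models between genes had medians of 875 and 1080 bp spliced and covered 6537 and 7405 bp. Exact spliced matches had medians of 2254 and 2080 bp and covered 18632 and 20778.5 bp. In mouse the members were thus about as long after splicing as models between genes. In bovine they were shorter, since models between genes had 1080 bp (95% interval of the median 1051 to 1112). Members of both libraries covered less genome, within the limit that the host intron sets. Last exons had a median of 509 bp (mouse) and 568 bp (bovine), and introns one of 1481 and 1152.5 bp.

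**Figure D2:**
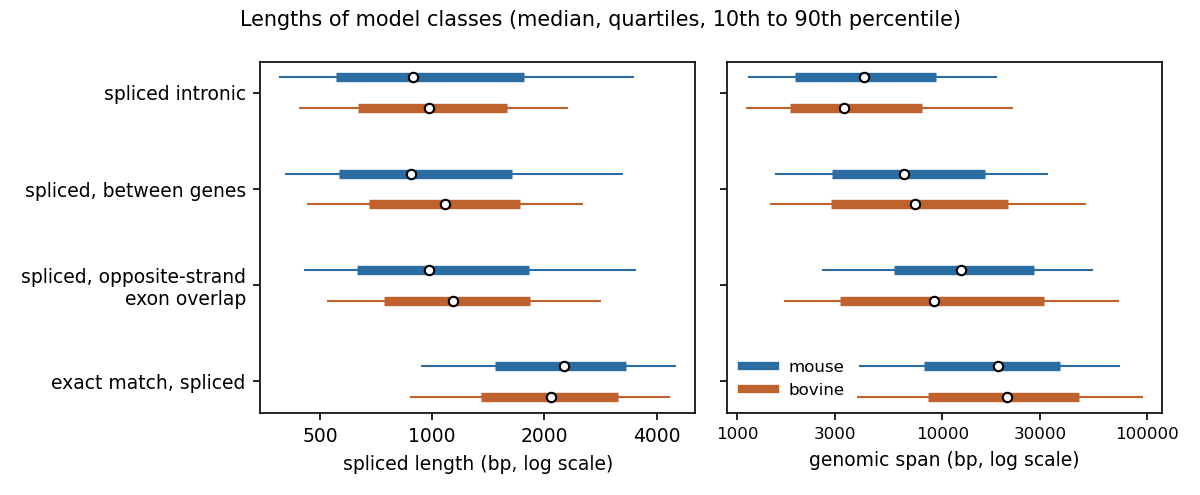
Spliced length (left) and genomic span (right) in bp on log axes for 4 classes of spliced models, mouse in blue and bovine in orange; circles are medians, thick bars quartiles and thin lines the 10th to 90th percentile over models. Intronic models have medians of 886 and 980 bp spliced and 4155 and 3326 bp of span.

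The model with the most exons in mouse lay in Gm38510 and had 9 exons and 1530 bp, at chr1:85172513-85194615. A model of 7 exons in Nav3, a neuron navigator gene, covered 75.9 kb of its intron 3 on the opposite strand and had a first exon of 3950 bp. Poc1b held models of 7 and 6 exons on the opposite strand in its intron 9, and Gm35197 held 1 of 6 exons. The longest mouse models after splicing were 10131 bp in Gm36147, 8605 bp in Sh3gl2 (endophilin), 8556 bp in Serpinb1c, 8545 bp in Slc44a1 and 8418 bp in Thoc2. In bovine the most exons were 6, in USP2 (a deubiquitinase), CAMTA1 (a transcription activator) and KCNIP4 (a potassium channel interacting protein), all on the opposite strand. The longest bovine models were 6824 and 5452 bp in PGM5, 6012 and 5445 bp in IGLL1, and 5045 bp in ETF1 (a translation release factor). Another 14 bovine models had 5 exons, among them 2 in the immunoglobulin-like gene IGLL1.

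Most members lay antisense to the host. In mouse, 686 of the 910 models whose host strand was known were on the opposite strand, or 75.4% (72.5% to 78.2%). In bovine this held for 463 of 713, or 64.9% (61.3% to 68.4%). The host strand came from the annotation in mouse and from sense models of the host in bovine. Over the mouse models whose host had sense models, the condition that the bovine assignment needs, the mouse share was 405 of 574, or 70.6% (66.6% to 74.3%). Both ways gave the same strand for all 568 models compared, so the lower share goes with the set of models left. In both libraries the share was higher among models with more exons. It was 70.6% for 2 exons and 85.1% for 3 or more in mouse, and 61.7% (57.1% to 66.1%) against 71.4% (65.2% to 77.1%) in bovine, where the intervals overlap. With 1 model per locus, a locus being models that overlap on 1 strand, the shares were 72.1% and 63.0%. Code i keeps only models that lie wholly within an intron. Models on the host's strand that join a host exon are counted as sense models instead. Those on the other strand that overlap one fall into the exon overlap class. Both are outside these shares, and how far this shapes them or their rise with exon number was not tested.

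The share also varied with other features of the models. In mouse, 72.8% were opposite in intron 1 of the host (67.7% to 77.5%) and 78.0% in later introns (74.0% to 81.6%), with overlapping intervals. Hosts that had a sense model of their own had 71.0% (67.0% to 74.7%) and hosts without one 82.7% (78.3% to 86.6%), with intervals that do not overlap. All these intervals treat models of 1 locus as independent. Neither this split nor the one by exon number was run with 1 model per locus. First exons of 107 to 110 bp gave 78.1% (66.9% to 86.9%) and all other lengths 75.1%. The mouse models left out by first exon length gave 85.0% (51 of 60; 73.4% to 92.9%). Unspliced intronic models were opposite in 61.5% in mouse (59.2% to 63.8%) and in 46.9% in bovine (39.7% to 54.2%). How the strand of a model without an intron was set is not given in the sources used here.

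**Figure D3:**
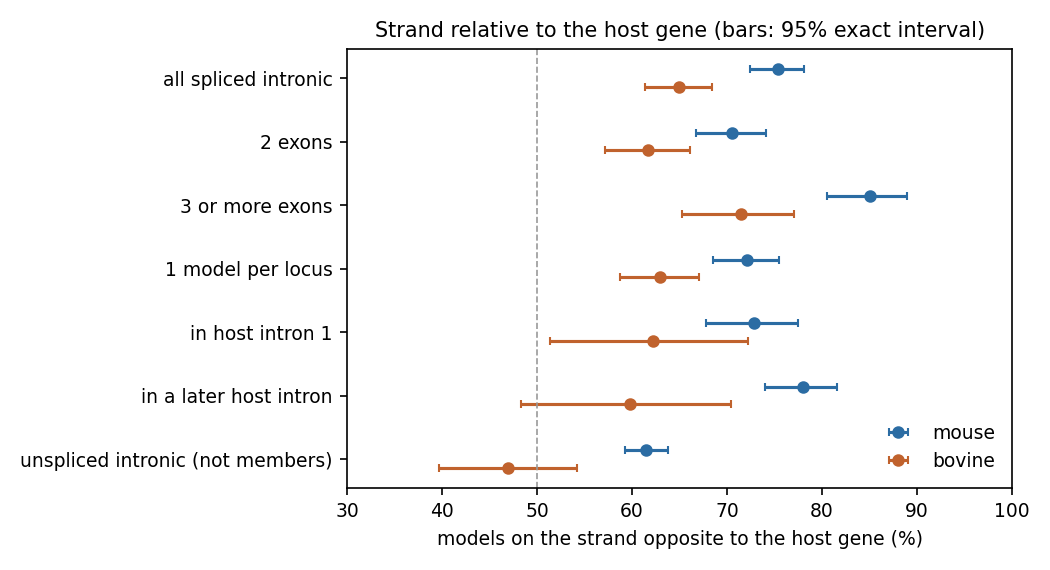
Percent of models on the strand opposite to the host gene (horizontal axis) for subsets of the spliced intronic models and for unspliced intronic models, mouse in blue and bovine in orange; bars are exact 95% intervals over models and the dashed line marks 50%. Mouse models of 3 or more exons reach 85.1%, and bovine unspliced models lie at 46.9%.

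The members used 633 host genes in mouse and 630 in bovine. A single model was found in 464 and 445 of them, at least 2 in 169 and 185, and at least 5 in 18 and 20. Models on both strands occurred in 23 mouse and 36 bovine hosts. By annotated type, 518 mouse hosts were protein-coding and most of the rest were long non-coding RNA genes. A sense model of the host itself was present for 396 of 633 mouse hosts, or 62.6% (58.7% to 66.3%), and for 451 of 630 bovine hosts, or 71.6% (67.9% to 75.1%). An exact match to the host's reference transcript was present for 34.0% and 28.9%.

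Hosts were long genes. The median length of 509 protein-coding mouse hosts found in GENCODE was 103.5 kb, against 17.3 kb for all 21992 protein-coding genes. The share of genes that hosted a member was 0.771% below 50 kb (0.645% to 0.914%) and 4.54% from 50 to 100 kb. It was 6.77% from 100 to 200 kb and 12.9% from 200 to 400 kb. At 400 kb or more it was 22.7%, or 80 of 353 genes (18.4% to 27.4%). The share with a sense model of their own was 70.3% among protein-coding hosts and 52.2% among all protein-coding genes. The share was also higher among hosts within each length class below 200 kb, with intervals that do not overlap. It was 76.3% of hosts against 49.7% of all genes below 50 kb, 80.7% against 64.8% from 50 to 100 kb, and 76.2% against 60.4% from 100 to 200 kb. The intervals overlapped from 200 to 400 kb, with 62.7% (51.3% to 73.0%) against 54.3% (50.3% to 58.2%), and at 400 kb or more, with 46.2% (35.0% to 57.8%) against 42.5% (37.3% to 47.8%).

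**Figure D4:**
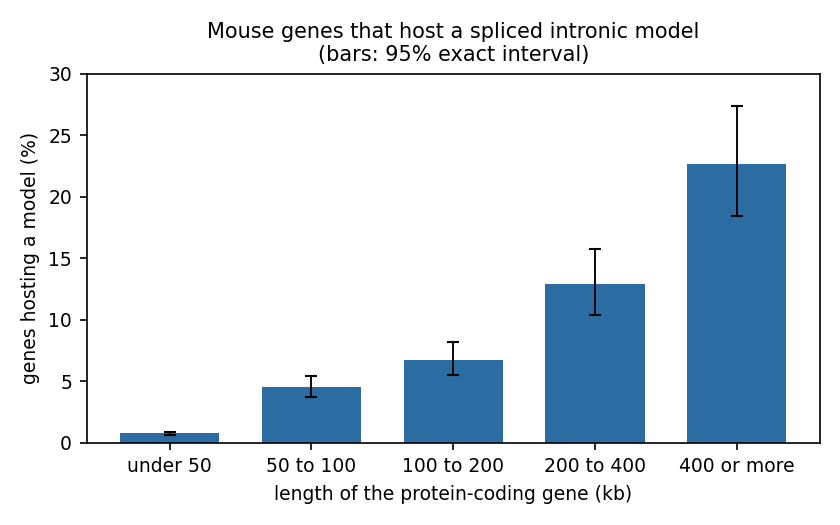
Percent of mouse protein-coding genes that host a spliced intronic model (vertical axis) by gene length in kb (horizontal axis); error bars are exact 95% intervals over genes. The share is 0.771% below 50 kb and 22.7% at 400 kb or more.

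Of the mouse hosts, 4 held 7 models each. In Gm12446, an annotated antisense gene, all 7 lay on the opposite strand in intron 1 at chr4:46335491-46342530, began at 1 base with a first exon of 161 bp and had 3 to 5 exons. Gpc5 and Ctnnd2 are long genes of a cell-surface glypican and of delta-catenin. In Gpc5 the models formed 2 loci in introns 5 and 7, all opposite, with up to 6 exons, and no sense model of Gpc5 was present. In Ctnnd2 6 of the 7 lay in intron 9 and 1 in intron 3, also all opposite. The models of Gm12446 and of Gm1604a formed the largest mouse loci, with 7 each. In Gm1604a all 7 lay on the host's own strand at chr17:7893565-7902945. They shared a deposited start group, which joins models that begin at nearby bases, with sense models of the gene.

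Fam160a1, Map1b (a microtubule-associated protein), Fam117b and Cfdp1 held 6 models each. All 6 models in Map1b began at 1 base with a first exon of 109 bp, lay opposite to the host in intron 2 at chr13:99457860-99490584 and ended at 4 different bases. All 6 in Fam117b shared a first exon of 123 bp, opposite to the host in intron 1. Those in Cfdp1 lay on the host's strand in intron 5. Of 10 mouse hosts with 5 models, 7 were Tacr1 (the substance P receptor), Nav3, Npsr1 (the neuropeptide S receptor), Ttc28, Hs6st2 and Mgat3 (enzymes acting on heparan sulfate and on N-glycans) and Ino80dos. In these 7 hosts all models were opposite except in Hs6st2, where 4 of 5 were on the host's strand. The others were Tmem132d and Bicd1, with all 5 opposite, and Wwox, with 4 of 5.

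In bovine, MYO16 (an unconventional myosin), PGM5 (a phosphoglucomutase-related protein of cell junctions) and CSMD1 held 10 models each. The 10 in MYO16 were split evenly, 5 opposite and 5 same, over 4 loci at chr12:84078352-84193884 of bosTau9. All 10 in PGM5 were opposite, and 9 of them formed the largest bovine locus. In CSMD1 9 were opposite and 1 was not, and 8 of the 10 shared a start. AUTS2 held 9, 5 of them opposite. DAB1, an adaptor of reelin signalling, also held 9, with 7 on its own strand. TMEM246 and LOC100299712 held 7 each, all opposite. The 7 in TMEM246 shared their first exon of 718 bp and their last base, so that they differed only in the exons between.

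KCNIP4, MAPK4, AGAP1, LOC100336984, PLEKHM3 and DSCAML1 held 6 each. All 6 in PLEKHM3 began with a first exon of 128 bp in intron 6, opposite to the host. In LOC100336984 the 6 models formed 6 separate loci, 4 of them on the host's strand. All 6 in DSCAML1, a cell adhesion gene, were opposite. ZNF385D (a zinc finger protein) and ASIC2 (an acid-sensing channel) held 5 each and had no sense model, so their strand was not assigned.

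**Figure D5:**
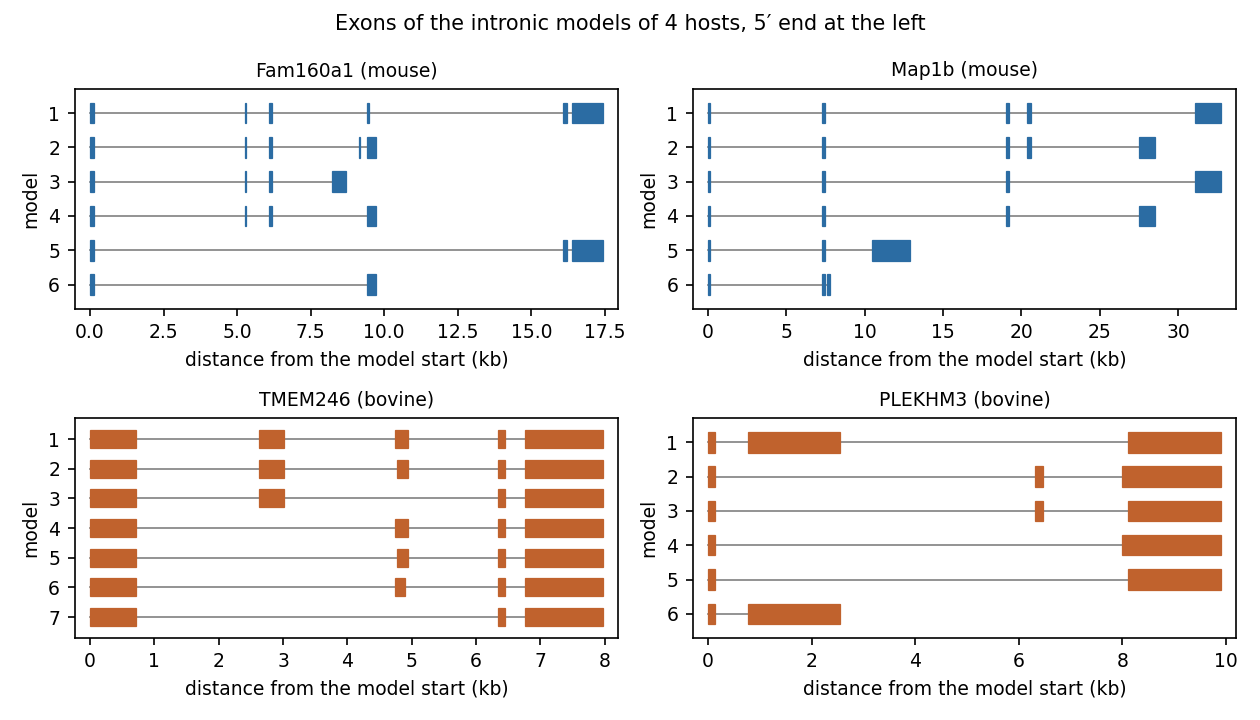
Exons (boxes) and introns (lines) of the intronic models of Fam160a1 and Map1b in mouse and TMEM246 and PLEKHM3 in bovine, 1 row per model, by distance from the shared start in kb. All models of a host begin at 1 base; in TMEM246 the 7 models also end at 1 base, in Map1b the 6 models end at 4.

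As a whole the members formed 698 loci in mouse and 753 in bovine, of which 141 and 131 held at least 2 models. All intron chains differed, with 939 and 969 distinct chains, whereas first exons were reused, with 762 and 838 distinct ones. The deposited start groups, which join models that begin at nearby bases, numbered 735 and 790.

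Within the host, intron 1 held the largest share of the mouse members. Of 817 placed in a GENCODE transcript of the host, 335 lay in intron 1, or 41.0% (37.6% to 44.5%), 19.2% in intron 2 and 39.8% in later introns. In the longest transcript of each host, intron 1 made up 22.3% of the summed intron length. By exact matches of the library alone, which placed fewer models, the intron 1 share was 43.2% of 220 in mouse (36.5% to 50.01%) and 52.3% of 172 in bovine (44.6% to 59.98%). The hosting intron had a median length of 46.1 kb in mouse, against 2.64 kb for all 7486 introns of the hosts' longest transcripts. The members covered a median of 12.4% of their intron and began a median of 42.6 kb from the host's start (38.3 to 46.9), at 40.4% of its length. By exact matches, the median start lay 25.3 kb from the host start in mouse (19.96 to 31.1) and 16.5 kb in bovine (11.9 to 22.4).

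Most members began away from known starts. In mouse 95 of 939 began within 1 kb of the start of any GENCODE transcript, those of the host included, and 495 were more than 10 kb from any. In bovine, where only starts of exact matches were available, 35 of 969 were within 1 kb. By that same rule 8 mouse models were. The start group held intronic models only for 808 mouse and 902 bovine members.

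Some members shared their start with a sense model of the host. Here and in the next paragraph, sharing a start or beginning with another model means being in the same start group. The start bases need not be identical. A sense model of the same host was in the start group of 41 mouse members in 29 hosts and of 40 bovine members in 30 hosts. In mouse, 2 models in Abcb5 (a transporter) shared a start group with 5 sense models of up to 16 exons. The first exons of these 2 models, of 101 and 201 bp, belong to the first sequence group. A 2-exon model of 2173 bp in Itsn1 (intersectin, an endocytic scaffold) began with 6 sense models of up to 31 exons, and 1 in Atp9a with a sense model of 28. All 3 models in Csmd1 shared their start with a sense model of 3 exons. In bovine, a 2-exon model in ABI3BP began with 3 sense models of up to 45 exons, and 1 in DGKI (a diacylglycerol kinase) with sense models of up to 31. A 4-exon model in BMPR1A, a receptor of bone morphogenetic proteins, shared its start with a sense model of 13 exons. A model of 1910 bp in KLF17 (an early embryonic transcription factor) and 2 in RBPJ (the Notch pathway's DNA-binding factor) also shared starts with sense models of their hosts.

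Other members shared their start with a neighbouring gene on the opposite strand. All 6 models in Fam160a1 began with 2 sense models of Gm19068, and 4 models in Iqgap2 (a scaffold of the cytoskeleton) with 2 of Gm32702. In Runx2, the bone transcription factor, 2 models began with 4 sense models of Supt3. A model in Ccnd3 (cyclin D3) began with 3 sense models of Taf8, and 1 in Pfkm (muscle phosphofructokinase) with 3 sense models of Senp1. In bovine, 1 model in NCAPG (a condensin subunit) began with a sense model of DCAF16. In mouse, 59 members were in a start group with a model overlapping an exon on the opposite strand, against 16 in bovine.

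A same-strand GENCODE exon overlapped 101 of 939 mouse members by at least 1 bp, or 10.8% (8.85% to 12.9%). It covered 50% or more of the spliced length in 34 (3.62%). Exons of annotated antisense genes overlapped 35 members, those of protein-coding genes 29 and those of lincRNA genes 16. The host's own GENCODE exons were not set aside in these counts. First exons in Abcb5, Atad2b and Tmem132c, for instance, overlapped a GENCODE exon of their own host, although the deposited comparison with RefSeq placed the models inside an intron.

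Host genes were next grouped by function. The lists were not matched for gene length, and they were chosen with earlier results known, so the counts are descriptions. The base for each list was genes with a sense model of their own, of which 396 of 14090 in mouse (2.81%) and 451 of 13374 in bovine (3.37%) hosted a member. Hosts without a sense model of their own are outside these counts, but they are among the hosts named for each list. Cadherin and cell adhesion genes hosted in 3 of 22 in mouse (13.6%; 2.91% to 34.9%) and in 14 of 48 in bovine (29.2%; 17.0% to 44.1%). Counting hosts without a sense model, these were 10 and 20 hosts with 17 and 49 models. In mouse they were Cdh12, Cdh13, Cdh23, Cntn5, Cntn6, Csmd1, Ctnna2, Ctnna3, Negr1 and Pcdh15. In bovine the list was led by CSMD1, DSCAML1, ASTN2 and NTM, with 10, 6, 4 and 4 models, and included the placental cadherin gene CDH3 with 3, all opposite. LRRC4C and the synaptic adhesion gene NRXN3 also held 3. CNTN3, CSMD2 and NLGN1 held 2, and CADM2, CDH13, CDH18, CNTNAP2, CTNNA1, LRRTM4, LSAMP, PCDH15, PCDH9 and ROBO1 held 1 each. The list was drawn up by symbol, and the place of CSMD1 and CSMD2 among adhesion genes was not checked. CSMD1 alone supplied 10 of the 49 bovine models.

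Ion channel and neurotransmitter receptor genes hosted in 7 of 55 in mouse (12.7%; 5.27% to 24.5%) and 11 of 98 in bovine (11.2%; 5.74% to 19.2%), and in all there were 13 and 21 hosts. In mouse, Grin2a (an NMDA receptor subunit) and Kcnmb2 (a subunit of calcium-activated potassium channels) held 4 models each, all opposite. Gabrg3, Kcng3 and Kcnma1 held 3 each, Dpp6 and the calcium release channel gene Ryr3 held 2, and Chrm3, Grid1, Itpr2, Kcnab1 and Kcnk2 held 1. In bovine, KCNMA1, the pore subunit of those potassium channels, held 5 models, all on its own strand, and KCNH8 2, also on its own strand. GABBR2, a GABA receptor subunit, held 3 of unassigned strand. CACNA1D, GRID1, GRIK2, GRIK4, KCNMB2 and KCNN3 held 2 each, and KCNIP4, named above, held 6. Hosts of single models included CACNA2D2, CACNB4, DPP6, GABRA2, GRM4, GRM5, GRM8, KCNC4, KCNK13 and KCNQ5.

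Guidance and receptor kinase or phosphatase genes hosted in 0 of 37 in mouse, where the upper bound is 9.49%, and in 9 of 45 in bovine (20%; 9.58% to 34.6%). The mouse host on this list was Ptprd, with 4 opposite models and no sense model. The bovine hosts included EPHB1 with 3 models, all opposite, and the netrin receptor gene UNC5D with 1 on each strand. PTPRN2 held 2 models, and EPHA3, EPHA7, EPHB2, NRG1 (neuregulin), PLXNC1, PTPRD, PTPRE, PTPRT and UNC5B held 1 each. Cytoskeleton and scaffold genes hosted in 4 of 26 in mouse (15.4%; 4.36% to 34.9%) and 10 of 36 in bovine (27.8%; 14.2% to 45.2%). In all there were 8 mouse and 11 bovine hosts. The mouse hosts were Ank3, Dlg2, Dmd (dystrophin), Dock3, Dock4, Dtnb, Pard3b and Sntg1, with 1 model each, of which Dock3, Dock4, Pard3b and Sntg1 had no sense model. In bovine, DLG2 and PARD3B held 3 each, all opposite. ANK3, DLGAP1, MAGI2, SYNE2 and TRIO held 2, all opposite except in ANK3, and ANK2, DLGAP2, DOCK10 and SNTB1 held 1.

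The remaining lists had few hosts. RNA-binding and splicing genes hosted in 2 of 49 in mouse (Hnrnpc, Mbnl3) and in 7 of 55 in bovine, among them RBFOX3 with 2 models and MSI1, ELAVL3 and CELF4 with 1 each, all opposite. KHDRBS2, MBNL2 and RBFOX1 held 1 each on their own strand. Mouse Msi1, Rbfox1 and Rbms3 held 1 model each but had no sense model. Genes that silence transposable elements or act on chromatin hosted in 3 of 41 in mouse, namely Cbx5 (heterochromatin protein HP1 alpha), Ehmt1 (a histone H3 methyltransferase) and Kdm4c (a histone demethylase). In bovine 1 of 42 did, KMT2C, with 2 opposite models. Pluripotency and lineage genes hosted in 1 of 21 in mouse (Tfcp2l1, a 400-bp opposite model). In bovine they hosted in 3 of 27. The bovine models were 2 in ESRRB and 2 in GATA3, all opposite, and 1 on each strand in KLF17. Maternal oocyte genes hosted in 0 of 29 in mouse (upper bound 11.9%) and in 1 of 27 in bovine (TLE6, 1 opposite model of 255 bp). For each of these 4 lists the interval included the share over all genes in mouse, and in bovine this held for all but the RNA-binding genes (12.7%; 5.27% to 24.5%).

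By symbol, 63 genes hosted members in both libraries, or 9.95% of the mouse and 10% of the bovine hosts. Among the 8909 same-symbol genes with any model in both, 366 hosted in mouse, 368 in bovine and 63 in both, which was 17.2% and 17.1% of those hosts. A model of any code counts here, members included, so all 63 shared hosts are in this base by construction. Of the 8909 genes, 4.11% hosted in mouse and 4.13% in bovine, and the overlap was not tested. Among the 5638 with an exact match in both, 122 and 117 hosted and 7 were shared, or 5.74% and 5.98%. Of those 5638 genes, 2.16% hosted in mouse and 2.08% in bovine. The shared hosts were thus mostly genes without an exact match in both libraries. At least 2 models were present in each library for 10 of the 63, and 28 had 1 in each.

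CSMD1 led the shared hosts with 3 models in mouse and 10 in bovine, the mouse ones on its own strand and 9 of the bovine ones opposite. KCNMA1 had 3 and 5, opposite in mouse and same in bovine. LRMDA had 4 and 3, CTNND2 7 and 2, GPC5 7 and 2, WWOX (an oxidoreductase of a common fragile site) 5 and 2, and KCNMB2 4 and 2. IMMP2L (a mitochondrial protease subunit) and SYT1 (the synaptic vesicle calcium sensor) had 2 and 3, and NKAIN2 had 2 and 2. With at least 1 model in the other library followed MYO16 (1 and 10), CFDP1 (6 and 1), IL1RAPL2 (1 and 5), and FRMD4A, PHACTR1 and PTPRD (4 and 1 each). DLG2, HIP1, PARD3B and PDE8B had 1 and 3, ANK3 and FOXN3 1 and 2, and CDC42BPA, DPP6 and FAM155A 2 and 1. CFDP1 held its models in intron 5 in both libraries and on its own strand in both.

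Of the 63, 19 had all models opposite in both libraries, 8 all on the host's strand in both, 10 opposite in mouse and same in bovine, and 4 same in mouse and opposite in bovine. In 13 the bovine strand was unassigned and the mouse models were all on 1 strand (12 opposite, 1 same). Whether the models of the 2 species come from matching places within the host was not analysed here, since the coordinates are of different genomes.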

How the data were processed

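Per the file headers, the deposited files are StringTie transcript models with exon positions, compared with RefSeq transcripts; positions are in bp on mm10 and bosTau9, per the submitters' processing notes. The aligner and read filters were not stated in the labels or headers. Read depth is unknown. Assembly from truncated or merged reads would change exon numbers and first exons.

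Models were parsed with Python 3.11.15 and grouped by library label. Members needed at least 2 exon rows. Host strand and introns came from GENCODE M21 and a RefSeq start table in mouse (829 and 81 models; 29 had none) and from sense models (codes =, c, k, m, n, j, o) in bovine; both ways agreed for all 568 mouse models compared. Shares carry exact Clopper-Pearson 95% intervals (scipy 1.17.1) and medians order-statistic intervals; they treat models as independent, although models of a locus share reads. First exons were grouped with blastn 2.17.0 (identity of at least 80% over at least 60% of the shorter known sequence and 50 bp). An exon joined a group by a match to any 1 of its exons. Membership, strand and host intron were tested on 200 simulated models.

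The members and lists were chosen with earlier results of these data known. Named hosts were, per library, the 15 with most models, up to 25 shared hosts, hosts on the lists, and the models with most exons or greatest spliced length. Some hosts on the lists are not reported here by name.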

Additional observations from a re-analysis of the deposited data

How the results depend on the processing

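No paired analysis was possible because each species has 1 library and no result comes from a test. Of 92 values under alternative settings, 54 stayed within the 95% interval of the reported value, or within 1.5 times of a reported count. Asking for at least 3 exons gave 0.742% of mouse and 0.806% of bovine models, 213 and 217 hosts, 219 and 242 loci, opposite shares of 85.1% and 71.4%, 1 shared host in place of 7, and an own sense model for 51.6% of mouse hosts. As shares of multi-exon models the mouse members were 2.57%, and with the omitted first exon length kept 2.39%. With 1 model per locus the median spans were 3541 bp (mouse) and 2852 bp (bovine), the median bovine spliced length 934 bp, and the mouse opposite share 72.1%. With the host strand from sense models that share was 70.6%. Exact matches alone gave an own model for 34.0% of mouse and 28.9% of bovine hosts. Counting genes with any model in both gave 63 shared hosts, and an overlap of 50% or more of the spliced length gave 3.62%. Counting distinct first exons, an alternative chosen after the data were seen, gave 6.04% for mouse first exons within 1 bp below to 2 bp above the most frequent length. A spliced length of at least 200 bp left every member in. No opposite share fell under 50% in any setting run. Unknown depth, 1 library per species and the lack of a bovine annotation limit all comparisons between the libraries.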
